A study of Rattus norvegicus with 12 samples.

Results

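Genes of voltage-gated and epithelial ion channels were followed in rat lung over the days in which alveoli form, with and without growth restriction before birth. The members are all features with NM accessions whose mapped rat symbol starts with Kcn (potassium channels), Scn (sodium channels), Cacn (calcium channels), Hcn (pacemaker channels) or Clcn (chloride channels and exchangers). The rule took 126 of the named genes on the array, as 131 of 26208 features. The 3 subunits of the epithelial sodium channel among them (Scnn1a, Scnn1b and Scnn1g) are treated apart from the channels of muscle and nerve. Kcnip2, Kcnc2, Kcng3 and Kcnk2 had more than 1 feature each.

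Whole lungs came from rat pups at postnatal days 4, 10 and 21. Of these, 14 pups were growth restricted before birth through a low protein diet (IUGR) and 15 were controls. RNA was pooled over 2 or 3 pups and hybridised to 12 NimbleGen arrays, with 2 pools in each of 6 groups. The litters behind each pool are not given in the sources used here, so p-values measure only the spread between pools.

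Ion channels let sodium, potassium, calcium or chloride cross membranes. In the lung, the epithelial sodium channel takes up sodium on the air side of the epithelium and the sodium pump moves it out on the other side, so that liquid follows and the airspaces are cleared at birth. Potassium channels set the membrane voltage of epithelium and of pulmonary vessels, and voltage-gated calcium channels couple that voltage to contraction in muscle and to release in nerve.

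Values are log2 intensities, and a difference of 1 on that scale is a doubling. Over the channel features, arrays of days 4 and 10 correlated with their joint mean at 0.974 to 0.990. Day 21 was normalised apart, so its levels are not set against the earlier days. Its arrays correlated with that joint mean at 0.912 to 0.921, except Control day 21 replicate 2 (-0.00866), which was left out, so that 1 control pool remains at day 21. Channel features were dim: 69 of 131 (52.7%) lay in the dimmest 30% of all features, with a mean log2 intensity under 7.83. Brightness also depends on the probes, so no level is compared between genes. The lung epithelial marker Sftpc read 15.31 to 15.62 on the 11 arrays used.

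The alpha subunit of the epithelial sodium channel fell between day 4 and day 10. Scnn1a encodes this subunit, without which the channel conducts little. At day 4 its IUGR pools read 11.60 and 11.57 and its control pools 11.29 and 11.40. At day 10 the IUGR pools read 10.84 and 10.70 and the control pools 10.98 and 10.85. All pools of day 10 lay below all pools of day 4. The difference, day 10 minus day 4 averaged over both diets, was -0.62 ± 0.07 (SE), a 1.54-fold fall (adjusted p = 0.00133, limma over all 26208 features). The fall was -0.82 ± 0.09 in IUGR pools (adjusted p = 0.00390) and -0.43 ± 0.09 in controls (adjusted p = 0.0476), and the control value did not pass under 9 alternatives. In whole lung, fewer cells of a type and less RNA per cell cannot be told apart.

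The beta and gamma subunits, its partners, did not pass. Scnn1b read 9.83 and 9.31 in IUGR pools and 9.71 and 9.60 in control pools of day 4, and 9.12 and 9.17 and 9.42 and 9.25 at day 10. Its days overlapped through IUGR day 4 replicate 2, and the difference was -0.37 ± 0.11 (adjusted p = 0.0553, limma). Scnn1g read 11.84 and 11.58 in IUGR pools and 11.53 and 11.60 in control pools of day 4, and 11.59 and 11.28 and 11.54 and 11.52 at day 10. Its days overlapped as well, with a difference of -0.15 ± 0.09 (adjusted p = 0.268).

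**Figure D1:**
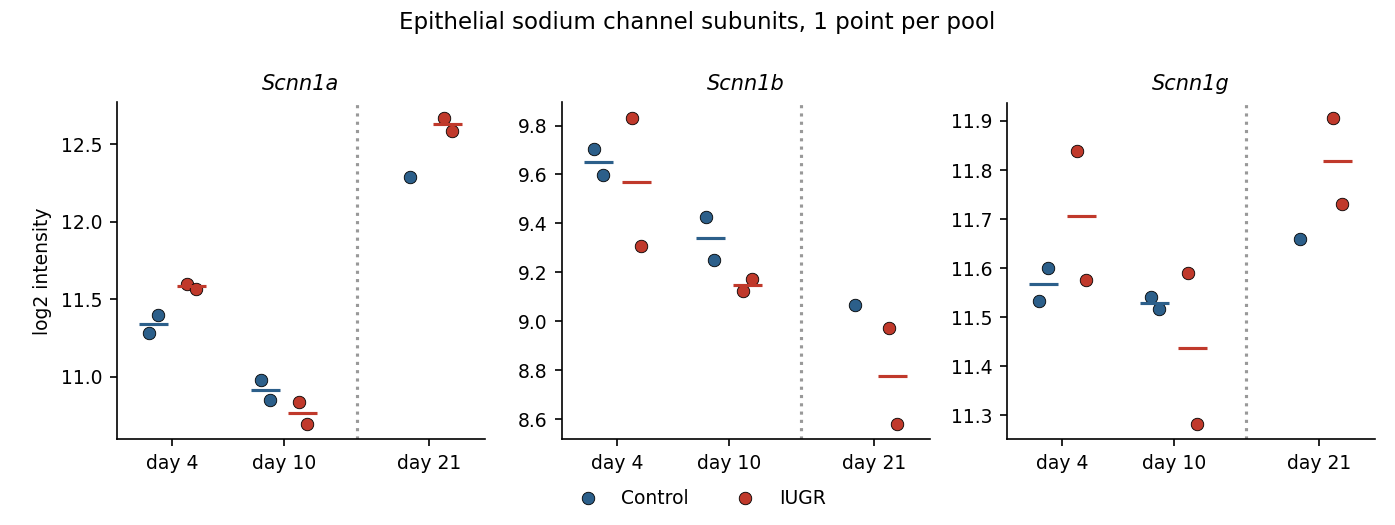
Log2 intensity of the 3 epithelial sodium channel subunits by day and diet, 1 point per pool, with day 21 normalised apart and holding 1 control pool. Scnn1a lies at 11.29 to 11.60 at day 4 and at 10.70 to 10.98 at day 10.

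Between diets, none of these subunits passed on any day. Scnn1a was 0.24 ± 0.09 higher in IUGR at day 4, where its pools did not overlap (unadjusted p = 0.0327, adjusted p = 0.475, limma). At day 10 its difference was -0.15 ± 0.09 (adjusted p = 0.756), and the change of the diet effect from day 4 to day 10 was -0.39 ± 0.13 (adjusted p = 0.594). For Scnn1b the diet differences were -0.08 ± 0.16 at day 4 and -0.19 ± 0.16 at day 10. For Scnn1g they were 0.14 ± 0.13 and -0.09 ± 0.13. At day 21 Scnn1a read 12.67 and 12.59 in IUGR pools and 12.29 in the control pool, a difference of 0.34 ± 0.23. Scnn1b read 8.97 and 8.58 beside 9.07 (-0.29 ± 0.27), and Scnn1g 11.91 and 11.73 beside 11.66 (0.16 ± 0.23). The adjusted p of each was 0.9996, with the spread taken from the IUGR pools alone.

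Scnn1g and Scnn1b are neighbours on rat chromosome 1 and lie on the same strand. The 250 bases before each start (RefSeq, build GRCr8, plus strand) are shown because these genes encode partners of one channel but start from separate promoters, Scnn1g at chr1:185735975-185736224 and Scnn1b at chr1:185861126-185861375. Capitals mark matches, on either strand, to the GC box letters GGGCGG and to CTCAAG, the core bound by the lung epithelial factor NKX2-1.
Scnn1g: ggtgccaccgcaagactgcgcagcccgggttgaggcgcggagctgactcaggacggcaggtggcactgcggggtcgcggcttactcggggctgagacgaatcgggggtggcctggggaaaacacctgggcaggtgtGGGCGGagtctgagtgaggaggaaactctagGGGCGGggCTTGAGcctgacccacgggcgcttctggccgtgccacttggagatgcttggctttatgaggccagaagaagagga
Scnn1b: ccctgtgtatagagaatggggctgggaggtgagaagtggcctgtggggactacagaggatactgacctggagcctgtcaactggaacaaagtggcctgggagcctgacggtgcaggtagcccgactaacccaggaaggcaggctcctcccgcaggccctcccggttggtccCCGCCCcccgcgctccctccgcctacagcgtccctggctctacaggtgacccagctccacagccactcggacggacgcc
Scnn1g held GC boxes starting 114 and 83 bases before its start and CTCAAG, as its complement, at 75 bases, and Scnn1b held 1 GC box at 79 bases. Where the table lists several starts for a gene, such as Kcns3, only its first entry was used here. A GC box was found in 32.4% of all 27457 promoters of this length and CTCAAG in 13.3%, and a match is not a measured binding site.

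Over all channel features, 26 of 131 (19.8%) changed between day 4 and day 10, 10 higher and 16 lower. This is near the background, where 21.6% of all features passed, 10.3% higher and 11.3% lower. Of the 69 dimmest channel features 3 passed (4.35%, beside 5.58% of all features in the dimmest 30%). Of the other 62 channel features 23 did (37.1%, beside 28.5% of all features above the same brightness). In controls alone 2 rose and 3 fell (background 2.29% and 1.99%), and in IUGR pools alone 7 rose and 8 fell (background 6.83% and 6.16%). With 1 pool left out, the count of 26 became 9 without Control day 10 replicate 1, 12 without Control day 10 replicate 2, 11 without Control day 4 replicate 1, 17 without Control day 4 replicate 2 and 13 without IUGR day 10 replicate 1. Leaving out the other IUGR pool of day 10 gave 21, and of the IUGR pools of day 4 the second gave 24 and the first 30. In the same order, the count of all features, 5669 with every pool, was 2703, 2610, 2831, 3775, 3190, 4669, 5920 and 6798. In each of these fits the group that lost a pool keeps 1, which is assumed to vary like the other groups. Of these features 8 passed under all 15 alternatives, among them Cacnb3, Cacna2d1, Kcns3, Scnn1a, Kcnj15 and Kcnk1, and the other 18 failed at least 1.

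**Figure D2:**
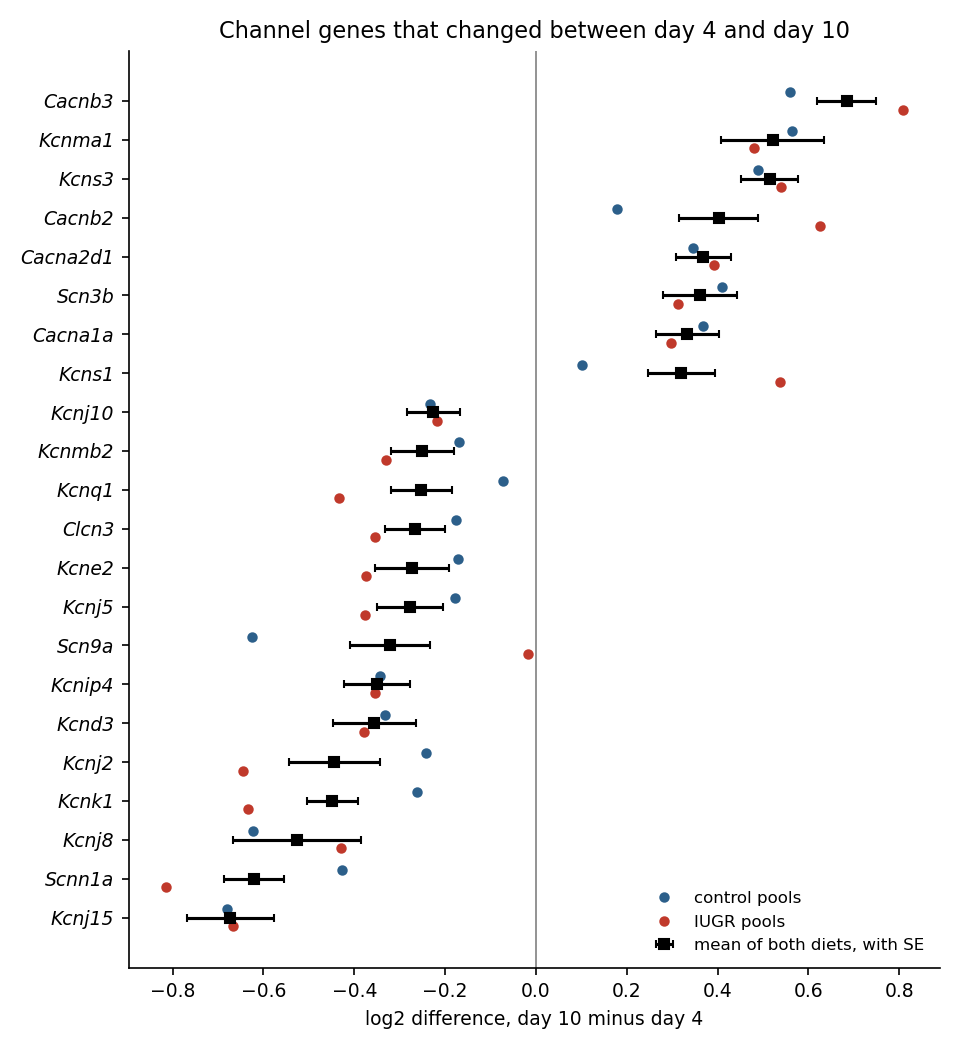
Log2 difference, day 10 minus day 4, of 22 of the 26 channel features that passed, with the mean of both diets and its SE and each diet's own difference. The rises shown reach 0.68 in Cacnb3 and the falls -0.67 in Kcnj15.

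Of 20 channels listed for epithelium, 7 fell between day 4 and day 10 and none rose. Over all features 11.3% fell and 10.3% rose, and the list was drawn with earlier results of these data known. Those that fell were Scnn1a, Kcnj15, Kcnk1, Kcnq1, Kcne2, Kcnj10 and Clcn3. The median difference of the list was -0.17, beside -0.02 over all features. Kcnj15, an inward rectifier potassium channel of epithelia, read 11.30 and 11.49 in IUGR pools and 11.60 and 11.24 in control pools of day 4, and 10.69 and 10.76 and 10.83 and 10.66 at day 10. Its days did not overlap, and the difference was -0.67 ± 0.10 (adjusted p = 0.00375, limma). Kcnk1, a tandem-pore background potassium channel, read 8.77 to 8.98 at day 4 and 8.32 to 8.58 at day 10 (-0.45 ± 0.06, adjusted p = 0.00244).

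The other epithelial channels that fell did so by less. Kcnq1, a potassium channel pore, differed by -0.25 ± 0.07 and its auxiliary subunit Kcne2 by -0.27 ± 0.08 (adjusted p = 0.0338 and 0.0487, limma). Clcn3, a chloride-proton exchanger of endosomes, differed by -0.27 ± 0.07, and Kcnj10, an inward rectifier, by -0.23 ± 0.06 (adjusted p = 0.0269 and 0.0300). These calls were often lost: of 15 alternatives Kcne2 passed under 2, Kcnq1 under 8, Kcnj10 under 9 and Clcn3 under 10, and with 1 array left out Kcne2 passed in none of 8 fits, Kcnq1 in 2, and Kcnj10 and Clcn3 in 3 each. Kcne3, another partner of Kcnq1, was -0.27 ± 0.09 (adjusted p = 0.0693) and did not pass. Kcnj13, an inward rectifier of epithelia, read 12.13 to 12.48 at day 4 and 12.32 to 12.87 at day 10, so its days overlapped. With an intensity trend in the variance prior 4 of the 20 passed as lower, and 3 to 7 did with each array left out in turn.

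Genes that work with these channels in lung liquid clearance and airway ion transport were listed too. Of 36, 28 were measured, of which 11 fell and 2 rose, where 11.3% of all features fell and 10.3% rose. Cftr, the chloride channel of cystic fibrosis, differed by -0.73 ± 0.08 (adjusted p = 0.00157, limma). Prss8, a protease that activates the epithelial sodium channel, differed by -0.56 ± 0.07, and the sodium pump subunit Atp1b1 by -0.42 ± 0.05. Spint1, Spint2, Stk39, Slc12a2, Slc4a4, Aqp1 and Aqp4 fell by 0.28 to 0.55, while the pump subunit Atp1b2 and the kinase Wnk4 rose by 0.23 and 0.24. Of 15 lung epithelial markers measured, 7 fell and none rose, beside the same background. Among those that fell were Epcam (-0.52 ± 0.07) and Sftpb (-0.62 ± 0.07). The summed intensity of the 15 markers was 199114 to 206304 at day 4 and 174230 to 183962 at day 10. Their part in the fall of the channel genes was not tested.

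Of 8 calcium channel pore features 1 rose, of 14 auxiliary features 3 did, and none fell. Over all features 10.3% rose and 11.3% fell. Cacnb3, an auxiliary beta subunit that brings the pore to the membrane, read 8.48 and 8.40 in IUGR pools and 8.63 and 8.52 in control pools of day 4, and 9.33 and 9.17 and 9.10 and 9.17 at day 10. Its days did not overlap, and the rise was 0.68 ± 0.07, or 1.61-fold (adjusted p = 0.00103, limma). Cacna2d1, the alpha-2-delta subunit that binds gabapentin, read 11.42 to 11.53 and then 11.82 to 11.97, a rise of 0.37 ± 0.06 (adjusted p = 0.00590). Cacna1a, the pore of presynaptic calcium channels, rose by 0.33 ± 0.07, and Cacnb2, the beta subunit of heart muscle, by 0.40 ± 0.09 (adjusted p = 0.0143 and 0.0169). Of 15 alternatives Cacna1a passed under 13 and Cacnb2 under 12. For Cacnb2 the difference was 0.63 ± 0.12 in IUGR pools (adjusted p = 0.0197, limma) and 0.18 ± 0.12 in controls (adjusted p = 0.472). Cacna1c, the pore of smooth and heart muscle, was 0.21 ± 0.06 (adjusted p = 0.0546).

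Voltage-gated potassium channel pores moved both ways, with 4 of 30 features higher and 3 lower, beside 10.3% and 11.3% of all features. Kcns3, a subunit that is silent alone and was described in rat pulmonary artery muscle, read 10.54 and 10.58 in IUGR pools and 10.77 and 10.75 in control pools of day 4, and 11.19 and 11.01 and 11.24 and 11.25 at day 10. Both days stood apart, with a rise of 0.51 ± 0.06 (adjusted p = 0.00211, limma). The silent subunit Kcns1 rose by 0.32 ± 0.07 (adjusted p = 0.0203, limma) and passed under 9 of 14 alternatives. Its difference was 0.54 ± 0.10 in IUGR pools (adjusted p = 0.0183) and 0.10 ± 0.10 in controls (adjusted p = 0.650). Kcnd3, a pore of transient currents, fell by 0.36 and its partner Kcnip4 by 0.35, which passed under 10 and 12 of 15 alternatives. Kcna5, a pore known from pulmonary artery muscle, was -0.25 ± 0.08 (adjusted p = 0.0544).

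Kcnma1, the pore of the large calcium-activated channel of smooth muscle, read 8.76 to 9.01 at day 4 and 9.20 to 9.70 at day 10, a rise of 0.52 ± 0.11 (adjusted p = 0.0169, limma). Kcnmb1, its smooth muscle partner, read 10.92 to 11.45 and 10.74 to 11.55, so its days overlapped. The 5 smooth muscle markers measured summed to 34283 to 38937 at day 4 and 34541 to 41332 at day 10. Of 15 inward rectifiers 5 fell and none rose, where 11.3% of all features fell and 10.3% rose. Kcnj8, the pore of the ATP-sensitive channel of vascular muscle, read 9.65 to 10.32 and then 9.15 to 9.81 (-0.53 ± 0.14, adjusted p = 0.0347). Kcnj2, which holds the resting voltage of muscle, fell by 0.44 and Kcnj5, of the atrial acetylcholine-gated channel, by 0.28. The 13 heart markers measured summed to 28747 to 80598 at day 4 and 10683 to 41411 at day 10. Their part in these falls was not tested. Of 15 alternatives Kcnj2 passed under 12 and Kcnj8 and Kcnj5 under 9 each.

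Among sodium channels other than the epithelial one, 1 of 13 rose and 1 fell, beside 10.3% and 11.3% of all features. Scn3b, an auxiliary beta subunit, read 12.59 to 12.85 at day 4 and 12.79 to 13.33 at day 10, which overlap through IUGR day 10 replicate 2 (0.36 ± 0.08, adjusted p = 0.0191, limma). Scn9a, a pore of pain-sensing neurons, fell by 0.32 on average, and passed under 8 of 14 alternatives. Its control pools read 8.09 and 7.98 and then 7.37 and 7.45, while its IUGR pools read 7.47 and 7.62 and then 7.36 and 7.70.

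Promoters of Cacnb3 (chr7:131666301-131666550, plus strand) and Kcns3 (chr6:39584106-39584355, minus strand), which rose, and of Kcnj15 (chr11:48070700-48070949, plus strand), which fell, are shown as examples of genes that passed under all alternatives and have an entry in the table. Capitals mark the GC box on either strand.
Cacnb3: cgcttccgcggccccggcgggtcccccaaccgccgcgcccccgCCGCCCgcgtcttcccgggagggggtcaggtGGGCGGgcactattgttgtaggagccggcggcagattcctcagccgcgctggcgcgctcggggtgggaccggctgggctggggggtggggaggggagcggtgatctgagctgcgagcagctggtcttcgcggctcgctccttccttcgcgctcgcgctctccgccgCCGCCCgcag
Kcns3: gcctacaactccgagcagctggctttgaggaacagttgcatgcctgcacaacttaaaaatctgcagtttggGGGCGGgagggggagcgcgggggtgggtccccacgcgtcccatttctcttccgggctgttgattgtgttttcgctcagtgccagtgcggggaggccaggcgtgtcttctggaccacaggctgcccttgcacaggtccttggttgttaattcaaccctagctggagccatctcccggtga
Kcnj15: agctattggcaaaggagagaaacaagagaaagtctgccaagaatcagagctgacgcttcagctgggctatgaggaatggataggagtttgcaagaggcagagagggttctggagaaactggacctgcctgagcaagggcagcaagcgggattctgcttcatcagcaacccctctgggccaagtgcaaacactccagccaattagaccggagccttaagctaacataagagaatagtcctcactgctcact
Cacnb3 is 76.4% G or C, Kcns3 59.2% and Kcnj15 50.8%, beside a median of 63.0% in the channel genes and 52.0% in all promoters. The median was 76.4% in the 7 genes that rose and have an entry and 64.4% in the 9 that fell, so Kcns3 and Kcnj15 both lie below the median of their own direction. Of the 126 genes, 84 have a promoter in this table, and 43 of them (51.2%) hold a GC box. All 7 genes that rose and have an entry hold one, as do 5 of the 9 that fell. TATAAA was found in 13.1% of all promoters and in 5 of the 84. AGAACA, which the glucocorticoid receptor can bind, was found in 17.1% of all and in 10 of the 84. An E box and a cyclic AMP element were searched at first and left out after their counts were seen.

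No channel feature differed between IUGR and control lungs past the threshold at day 4, at day 10, over both days or in the change between them, and no feature of the array did (background 0.0%, limma). At an unadjusted p of 0.05, 8 channel features were higher and 7 lower at day 4 (11.5%), where the background was 9.59%, with 4.12% higher and 5.47% lower. At day 10 there were 9 higher and 6 lower, beside a background of 7.99%, with 3.88% higher and 4.11% lower. Over both days 11 were higher and 7 lower (13.7%), beside 10.3%, with 4.85% higher and 5.41% lower. The change between days gave 8 higher and 6 lower, beside 7.38%, with 3.84% higher and 3.53% lower. Pools of both diets stayed apart on both days, in the same direction, in 16 channel features (12.2%), 9 higher and 7 lower, beside 9.78% of all features, 4.62% higher and 5.16% lower.

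Kcna1, a pore of axonal potassium channels, read 8.62 and 8.48 in IUGR pools of day 4 beside 8.02 and 8.14 in controls (0.47 ± 0.13, adjusted p = 0.387, limma). Kcnk12, a tandem-pore subunit, read 7.63 and 8.03 beside 7.25 and 7.47 (0.47 ± 0.14), and Cacng8 and Scn4a, a pore of skeletal muscle, were 0.27 ± 0.09 and 0.28 ± 0.10. These lay higher in both IUGR pools. On the lower side, Cacnb2 read 11.35 and 11.59 beside 11.94 and 12.04 (-0.52 ± 0.12, adjusted p = 0.346) and Scn9a was -0.49 ± 0.12. Kcnk3, a tandem-pore channel of pulmonary artery muscle that is mutated in some human pulmonary hypertension, had group means of 8.05 ± 0.07 and 8.33 ± 0.09 (SD, -0.28 ± 0.09, adjusted p = 0.393). Kcna2 and Kcnj9, both known from neurons, were -0.31 ± 0.10 and -0.29 ± 0.10. Without IUGR day 4 replicate 1, the day 4 differences were 0.66 in Kcnk12, 0.54 in Cacna2d2 and 0.50 in Kcnh3. That fit holds 1 IUGR pool of day 4, so these values rest on a single pool and are given without a test. The IUGR day 4 pool that stayed is the one high in heart, fat and nerve markers.

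**Figure D3:**
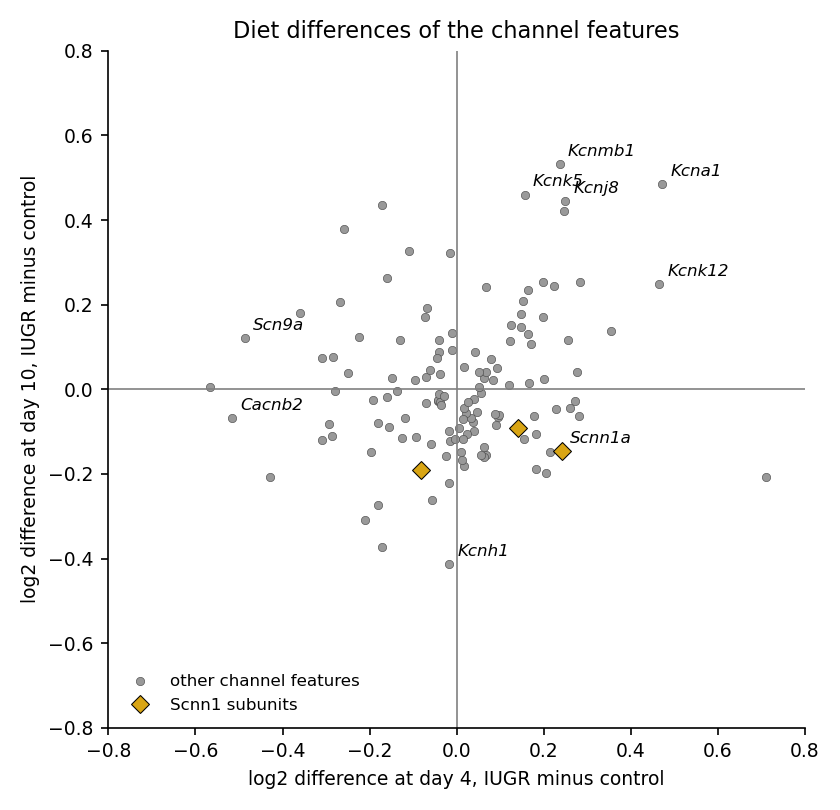
Log2 difference between IUGR and control of the 131 channel features, at day 4 on the horizontal axis and at day 10 on the vertical axis. Kcna1 lies at 0.47 and 0.48.

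At day 10 Kcna1 read 8.50 and 8.90 in IUGR pools beside 8.21 and 8.22 in controls (0.48 ± 0.13, adjusted p = 0.455, limma). Kcnk5, a tandem-pore channel of epithelia, was 0.46 ± 0.13 (adjusted p = 0.469). Kcnmb1 read 11.16 and 11.55 beside 10.74 and 10.91 (0.53 ± 0.17), and the tandem-pore Kcnk4 was 0.32 ± 0.10. Summed smooth muscle markers were 34541 and 41332 in these IUGR pools and 37398 and 39598 in controls. On the lower side were Kcnj12, an inward rectifier of muscle, at 7.96 and 8.05 beside 8.30 and 8.26 (-0.27 ± 0.08, adjusted p = 0.469), and Kcnh1, a voltage-gated pore (-0.41 ± 0.13). Kcnb2 (-0.37 ± 0.12), Kcnip1 (-0.26 ± 0.10) and Scn3b (-0.31 ± 0.12) were also lower.

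Averaged over days 4 and 10, Kcna1 was 0.48 ± 0.09 higher in IUGR, or 1.39-fold, with all IUGR pools above the controls of their day (adjusted p = 0.349, limma). Scn4a was 0.27 ± 0.07 and Kcnk12 0.36 ± 0.10 higher, again in all IUGR pools. Kcnj12 (-0.23 ± 0.06, adjusted p = 0.369), Scn3b (-0.26 ± 0.08), Kcna2 (-0.22 ± 0.07) and Kcns3 (-0.17 ± 0.06) were lower in all IUGR pools. The 3 features of Kcnip2, a partner of transient potassium channels, differed by -0.25, -0.26 and -0.57 at day 4 and by 0.04, 0.38 and 0.01 at day 10, so no direction is given for that gene.

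**Figure D4:**
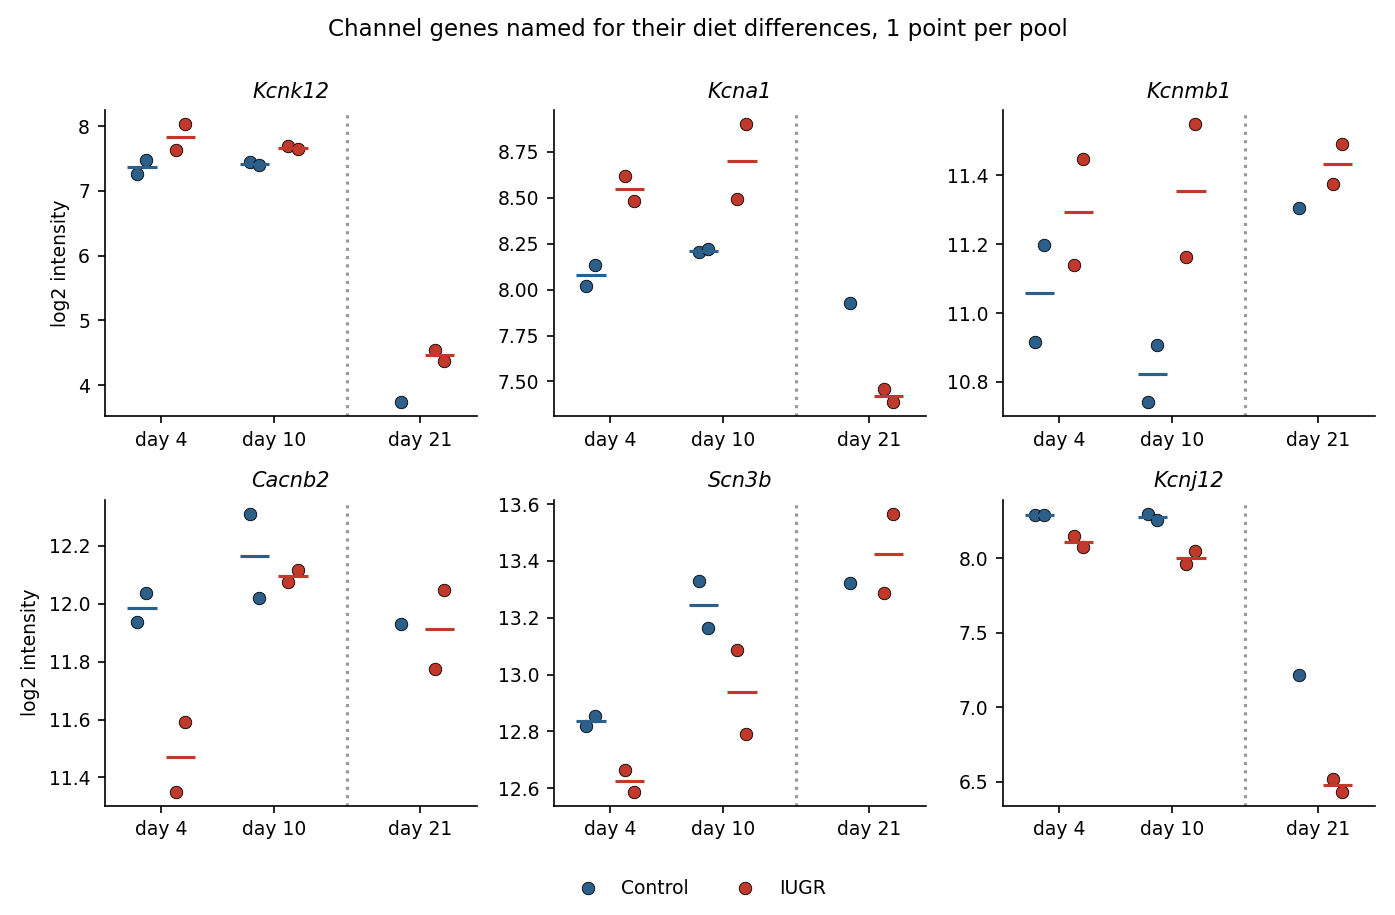
Log2 intensity by day and diet of channel genes named for their diet differences, 1 point per pool, with day 21 normalised apart. Kcna1 lies above the controls in all IUGR pools of days 4 and 10, and below the control in both IUGR pools of day 21.

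Channels of heart and skeletal muscle were read beside markers of those tissues. The 13 heart markers measured of 17 summed to 80598 on IUGR day 4 replicate 2 and to 28747 to 38025 on the other pools of that day. At day 10 they summed to 41411 on IUGR replicate 2 and to 10683 to 16122 on the others. Of 25 muscle channel features, 15 had diet differences above 0 at day 4 and 10 did at day 10, and none passed. Kcnj3, which forms the atrial acetylcholine-gated channel with Kcnj5, read 8.85 on IUGR day 4 replicate 2 and 7.90 to 8.29 on the other pools. At day 10 it read 8.23 on IUGR replicate 2 and 7.58 to 7.85 on the others, and its diet difference over both days was 0.33 ± 0.20 (adjusted p = 0.586, limma). On both days Kcnj3 was highest on the pool with the highest summed heart markers, and so was Kcnj8, at 10.32 and 9.81. Kcnj8 is not on the list of muscle channels, and other channel features were not counted for this. Kcnj5, the partner of Kcnj3, differed by -0.18 ± 0.10 (IUGR minus control) at day 10. The pools highest in heart markers were also highest in summed fat markers, at 22793 and 32053, and in nerve markers. At day 10, 26 of 131 channel features (19.8%) lay lower in both IUGR pools than in both controls, and 30 (22.9%) lay higher. The share over all features is not given here. Among the lower were the muscle channels Kcnj2, Kcnj5, Kcnj12, Kcnq1, Kcne1, Kcnd2 and Clcn1. Among the higher were the muscle channels Scn4a, Kcna5, Kcnj3 and a Kcnip2 feature. The part of heart, fat or nerve tissue in these values was not tested.

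**Figure D5:**
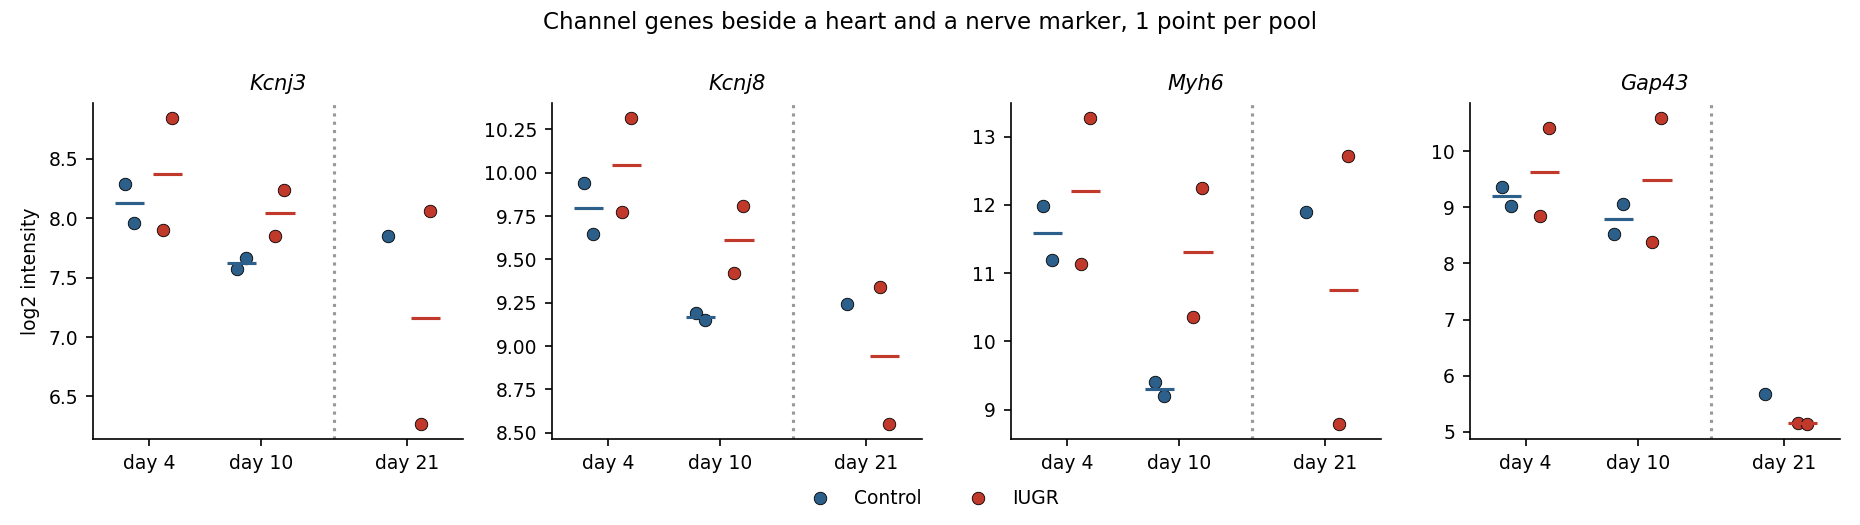
Log2 intensity by day and diet of the channel genes Kcnj3 and Kcnj8 beside Myh6, a heart muscle myosin, and Gap43, a nerve growth marker, 1 point per pool. Kcnj3 and Myh6 are highest on the same pool at day 4 (8.85 and 13.27) and at day 10 (8.23 and 12.25).

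Neuronal channels were read beside nerve markers. The 14 nerve markers measured of 16 summed to 8249 at day 4 and 11668 at day 10 on the second IUGR pool, and to 4465 to 6131 on the other pools of these days. Of 36 neuronal channel features, 18 had diet differences above 0 on each day, and none passed. Kcna1 read higher on the second IUGR pool than on the first at day 10, and lower at day 4. Without both of those second pools, Kcna1 was 0.41 higher over days 4 and 10, beside 0.48 with every pool. That value rests on 1 IUGR pool a day. The part of nerve tissue in these values was not tested.

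At day 21, 2 IUGR pools were set beside 1 control pool over 10097 NM features. No channel feature passed (background 0.0099%, limma). At an unadjusted p of 0.05, 5 were higher and 4 lower, beside 5.46% of NM features, 2.55% higher and 2.91% lower. Clcn7, a chloride-proton exchanger of lysosomes, read 9.39 and 9.51 in IUGR pools and 8.52 in the control (0.93 ± 0.23, adjusted p = 0.702). Kcnk12 was 0.73 ± 0.23 and Kcnn2, a small calcium-activated channel, 0.69 ± 0.22. Lower were Cacng7 (-1.08 ± 0.26), Kcnj12 (-0.74 ± 0.23), the voltage-gated pore Kcnh5 (-0.74 ± 0.24) and Scn2a, a neuronal sodium channel (-0.90 ± 0.32). Both IUGR pools lay above the control in 39 channel features and below it in 51, or 68.7% together, beside 63.4% of NM features, 32.1% above and 31.3% below. Heart markers summed to 36492 on the control pool and to 10698 and 60850 on the IUGR pools, and fat markers to 29248 on the control and 4528 and 5206 on the IUGR pools. Their part in these values was not tested.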

How the data were processed

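Intensity values of 26208 features, deposited by the authors on a linear scale, were made with RMA, per the submitters' processing notes; its version is not given in the sources used here. Accessions were matched, without versions, to RefSeq genes of build GRCr8, which gave 9731 features 1 symbol and left 16477 with none. Values were taken as log2. The 8 arrays of days 4 and 10 entered one linear model by limma 3.58.1 under R 4.3.3, and p-values were adjusted by Benjamini and Hochberg's method across every feature, with 0.05 as the threshold. Day 21 was fitted apart on 10097 NM features of 3 arrays, since its XM features were out of register. The number of arrays limits the precision. The fits were tested on simulated data.

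Members and lists were chosen with earlier results of these data known. Named genes were the Scnn1 subunits, up to 10 members past the threshold in each direction by size in each age comparison, the 5 higher and 5 lower with the smallest p in each diet comparison, and a panel of channel genes. Kcnh3, Kcnj10 and Kcnj13 fall outside this rule and were chosen after their values were seen. Some genes that the rule names are not reported here. Replicate numbers did not pair pools (r of -0.0677 at day 4 and 0.0619 at day 10). Alternatives were quantile normalisation, centring on the median, leaving out dim features, NM features alone, an intensity trend, a replicate block, and leaving out arrays.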

Additional observations from a re-analysis of the deposited data

Results flagged for a closer look

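For 5 channel genes both IUGR pools lay on one side of the single control pool at day 21 and on the other side of both controls at an earlier day. The difference between days was not tested. Kcna1 differed by 0.47 at day 4 and 0.48 at day 10, and by -0.51 at day 21. Kcnip1 was -0.26 at day 10 and 0.68 at day 21. Kcnh1 was -0.41 at day 10 and 0.11 at day 21. Kcnk5 was 0.46 at day 10 and -0.17 at day 21. Scnn1a was -0.15 at day 10 and 0.34 at day 21.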

How the results depend on the processing

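Between day 4 and day 10, the count of all features past the threshold was 5669 over both diets, 3405 in IUGR and 1123 in controls, and with NM features alone 2073, 1152 and 359. The replicate block gave 729 features and 3 channel features in controls, and 24 channel features in place of 26 over both diets. Without both IUGR pools high in heart and fat genes, the control count was 2997 features and 13 channel features in place of 5. With an intensity trend, 4 epithelial channels in place of 7 passed as lower. For diet, the counts of 0 became 1 at day 4 with the trend, and 60 at day 4, 29 over both days and 11 for the change between days without both of those pools. The 1 feature of day 21 became 62 with the trend and 0 with median centring or quantile normalisation. Leaving out 1 array gave, over both diets, 2610 to 6798 features and 9 to 30 channel features. In IUGR it gave 504 to 4259 and 4 to 18, and in controls 7 to 2264 and 0 to 8. For diet it gave 0 to 644 features and 0 to 4 channel features at day 4, 0 to 2 features at day 10, 0 to 166 over both days and 0 to 152 for the change. Epithelial channels called lower ranged from 3 to 7 and lung liquid genes from 7 to 15. Diet differences that turned sign belonged to subunits that did not pass. Scnn1b at day 4 ranged from -0.34 to 0.18, and was 0.18 without both pools. Scnn1g at day 10 ranged from -0.25 to 0.062, and was 0.062 without both pools. Scnn1g over both days ranged from -0.053 to 0.10, and the change in Scnn1b from -0.37 to 0.15. The cause of these shifts was not tested. Replicate numbers did not pair the pools. Without either IUGR pool, day 21 gives values with no test. With 2 pools a group, and most channel features dim, small differences were not detectable.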
